A study of Mus musculus with 18 samples.

Results

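The 10 genes described here belong to the molecular circadian clock: Arntl (also called Bmal1), Npas2, Cry1, Per1, Per2, Per3, Nr1d1, Nr1d2, Dbp and Ciart. They were chosen by gene symbol, and each of the 10 was read by 1 of the 19572 probe sets of the array that carry a gene symbol, which stand for 19505 genes. RNA came from skin and pituitary of C57BL/6 mice labelled as female and 5 to 6 weeks old, and was hybridised to Clariom S arrays, an Affymetrix platform. Each tissue was taken from wild-type mice (wt), from mice labelled lncKO and from knockouts of a microRNA, miR-205 (miR-205 KO), with 3 arrays in each of the 6 groups. By the title of the series the first knockout concerns MIR205HG, the long noncoding RNA gene that hosts miR-205. Skin samples are numbered 1 to 9 and pituitary samples 10 to 18, in the order wild type, lncKO, miR-205 KO. The labels name no treatment and say neither how the knockouts were made nor whether a group holds samples of different mice. They also do not give the time of day at which tissue was taken. The extraction text, which speaks of a piece of ear, stands beside the pituitary samples too.

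In mammals the clock is a feedback loop of transcription. The activators ARNTL and CLOCK, or NPAS2 in place of CLOCK, bind DNA elements called E-boxes and switch on the Per and Cry genes, whose proteins return to the nucleus and repress these activators. The same activators switch on Nr1d1 and Nr1d2, which encode the repressors REV-ERB alpha and beta. These compete with ROR activators at a second kind of element in Arntl, Npas2 and Cry1. Per1, Per2, Per3, Nr1d1, Nr1d2, Dbp and Ciart are therefore called the E-box arm below, and Arntl, Npas2 and Cry1 the ROR-element arm. In a tissue with a running clock the arms peak at different times of day. Both skin and pituitary are known to have such clocks.

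Of the 10 genes, 9 had an entry in the RefSeq promoter table (GRCm38.p6), with 11 windows among them. The 250 bases before each start site were searched on both strands for the E-box CACGTG, the related CACGTT, the D-box TTATGTAA or TTACGTAA (bound by DBP and its relatives) and the ROR element core TAGGTCA or TGGGTCA. The stretches below hold every match found, with the matched letters in capitals, and are shown because they are the only member windows with a match. The arms follow known regulation, not these matches.
Ciart, chr3:95882229-95882384, minus strand: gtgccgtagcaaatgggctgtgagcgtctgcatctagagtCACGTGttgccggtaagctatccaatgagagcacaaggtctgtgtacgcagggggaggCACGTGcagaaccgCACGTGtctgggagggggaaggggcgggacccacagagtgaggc
Per1, chr11:69098743-69098828, plus strand: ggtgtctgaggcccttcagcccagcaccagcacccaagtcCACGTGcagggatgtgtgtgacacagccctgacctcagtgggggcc
Cry1, chr10:85185069-85185173, minus strand: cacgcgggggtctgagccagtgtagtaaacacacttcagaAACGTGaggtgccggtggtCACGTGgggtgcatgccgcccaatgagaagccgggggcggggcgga
Nr1d1, chr11:98775378-98775445, minus strand: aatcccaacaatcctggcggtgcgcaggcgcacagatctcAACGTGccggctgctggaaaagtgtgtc
Per3, chr4:151044776-151044910, minus strand: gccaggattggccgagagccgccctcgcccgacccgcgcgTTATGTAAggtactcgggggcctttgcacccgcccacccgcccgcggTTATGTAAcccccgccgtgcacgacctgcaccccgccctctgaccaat

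Ciart held 3 E-boxes, which began 116, 58 and 44 bases before the start site. Per1 held 1 at 166 bases, in 1 of its 2 windows, and Cry1 held 1 at 60 bases. The related element, found as AACGTG on the strand shown, lay 79 bases before the start of Cry1 and 28 bases before that of Nr1d1. Per3 held 2 D-boxes, the nearer of which began 158 bases before the start. Of all 32851 windows in the table, 6.02% held an E-box, 3.85% the related element, 0.931% a D-box and 5.38% a ROR element core, which none of the member windows held. These matches describe the letters in these windows and nothing more.

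The marker genes of both tissues matched the labels, and several other lists moved with genotype. The mean log2 intensity of 5 keratinocyte genes was 14.97 to 15.74 on skin arrays and 3.83 to 4.23 on pituitary arrays. That of 6 anterior pituitary genes was 18.35 to 18.84 on pituitary and 3.85 to 5.89 on skin arrays. Among these genes, Gh ran from 4.86 to 11.29 in wild-type skin and from 2.81 to 3.17 in lncKO skin. The source of the Gh signal in wild-type skin was not tested. Although every mouse is labelled female, 3 Y-linked genes had a mean of 9.32 to 9.93 on pituitary arrays and of 2.66 to 3.32 on skin arrays. Sex and tissue therefore cannot be told apart in the comparison of tissues below. The pituitary groups had Y-linked means of 9.74 to 9.93 in wild type, 9.32 to 9.65 in lncKO and 9.72 to 9.74 in miR-205 KO. The shift in lncKO was not even. Log2 differences of the 3 genes from wild-type pituitary ran from -1.08 to 0.01, with a median of -0.04. By limma, 1 of the 3 passed as lower (adjusted p under 0.05), beside 0.7% of all probe sets called. In skin, 5 cartilage genes averaged 7.65 to 8.05 in wild type, 9.16 to 9.74 in lncKO and 9.08 to 9.45 in miR-205 KO, and 6 hair shaft genes averaged 5.26 to 9.47, 4.28 to 5.64 and 4.56 to 5.25. Likewise, 4 fat cell genes averaged 8.49 to 10.48 in wild type, 10.77 to 11.56 in lncKO and 10.60 to 11.58 in miR-205 KO. In bulk samples such as these, fewer cells of a type and less RNA per cell cannot be told apart. Array medians lay between intensities of 82 and 96, and the dimmest value of any clock gene was 30, above the 16 at or below which 22.8% to 25.3% of probe sets of an array lay.

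In pituitary lacking the long noncoding RNA, the clock genes split by arm: the fitted difference from wild type was above 0 for all 7 genes of the E-box arm and below 0 for all 3 of the ROR-element arm. Differences are on the log2 scale, ± standard error from limma's linear model, with adjusted p (Benjamini-Hochberg over all probe sets tested, threshold 0.05) from the same fit and n = 3 arrays per group. One gene of 10 passed that threshold, Ciart, while 0.7% of all probe sets did. The median difference was 0.88 in the E-box arm and -0.40 in the ROR-element arm, beside 0.01 over all probe sets. Per1 fell below 0 in 5 of 13 alternatives, with a lowest value of -0.26. Among these were the arrays quantile normalized or centred on their medians (-0.01) and fits with single arrays left out. The other 6 genes of the E-box arm stayed above 0 in all 13, as the ROR-element arm stayed below it. Leaving out 1 array moved the E-box median between 0.66 (without wild type 12) and 1.30 (without lncKO 13). In 5 of the 10 genes the arrays of lncKO and wild type did not overlap, beside 16.8% of all probe sets. Because the time of day of collection is not given, a difference in it between these groups cannot be told apart from genotype. Its part in the split was not tested. The same limit holds for every comparison of groups below.

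Ciart encodes a repressor of the clock activators that is itself under E-box control. Its log2 intensity was 5.00, 4.91 and 5.58 in wild-type pituitary 10 to 12 and 6.43, 6.81 and 6.49 in lncKO 13 to 15. The groups did not overlap, and Ciart rose by 1.41 ± 0.23 (adjusted p = 0.0186), a ratio of 2.66. The call was lost with a floor at an intensity of 16 (0.107) and with all 18 arrays in the fit (0.536). It was also lost without wild type 10 (0.0551) or 11 (0.066), or without lncKO 13 (0.0543), 14 (0.0755) or 15 (0.0554).

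Dbp encodes a transcription factor of D-boxes and carries clock output. On wild-type arrays 10 to 12 it read 15.14, 14.14 and 13.54, and on lncKO arrays 13 to 15 it read 16.25, 15.47 and 16.00. Every lncKO array was above every wild-type array. The difference of 1.64 ± 0.34, a ratio of 3.11, missed the threshold (adjusted p = 0.0533), and passed it with quantile normalization (0.0489), median centring (0.0482), dim probe sets left out (0.0345) or wild type 10 left out (0.0117). Nr1d1, the repressor that links both arms, read 12.34, 11.24 and 10.19 on the wild-type arrays, against 13.65, 12.78 and 12.93 on those of lncKO. The groups were again apart, with wild type 10 the nearest to lncKO. The difference was 1.87 ± 0.43 (adjusted p = 0.0788), and 2.41 (0.0125) without wild type 10.

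The remaining 4 genes of the E-box arm overlapped between wild type and lncKO pituitary. Nr1d2, the partner repressor, read 13.18, 12.36 and 12.40 against 13.45, 13.21 and 13.17, so that only wild type 10 came within the lncKO range (difference 0.63 ± 0.23, adjusted p = 0.29). Per3 read 11.07, 10.30 and 10.21 against 11.04, 11.39 and 11.61, again with wild type 10 inside the lncKO range (0.82 ± 0.27, adjusted p = 0.215). Per2, a core repressor, read 6.93, 6.27 and 5.86 against 6.39, 7.52 and 7.77 (0.88 ± 0.37, adjusted p = 0.361). Per1, the Per gene known for rapid induction by hormones and other signals, stood apart from its arm: it read 12.17, 11.03 and 11.52 against 11.56, 11.07 and 12.14, a difference of 0.02 ± 0.31 (adjusted p = 0.993).

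The ROR-element arm lay on the other side of wild type in lncKO pituitary. Npas2, the activator that can stand in for CLOCK, read 8.29, 7.38 and 7.99 on the wild-type arrays, against 7.26, 7.21 and 7.30 on those of lncKO. Cry1, a core repressor, read 8.00, 8.06 and 8.13 against 7.50, 7.94 and 7.54. In both genes the 3 lncKO arrays were below the 3 wild-type arrays, but neither difference passed (Npas2 -0.63 ± 0.23, adjusted p = 0.274, and Cry1 -0.40 ± 0.19, adjusted p = 0.41). Arntl, a core activator of the E-box arm, overlapped, with 9.65, 10.40 and 10.02 in wild type and 9.54, 9.85 and 9.65 in lncKO (-0.34 ± 0.21, adjusted p = 0.554).

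**Figure D1:**
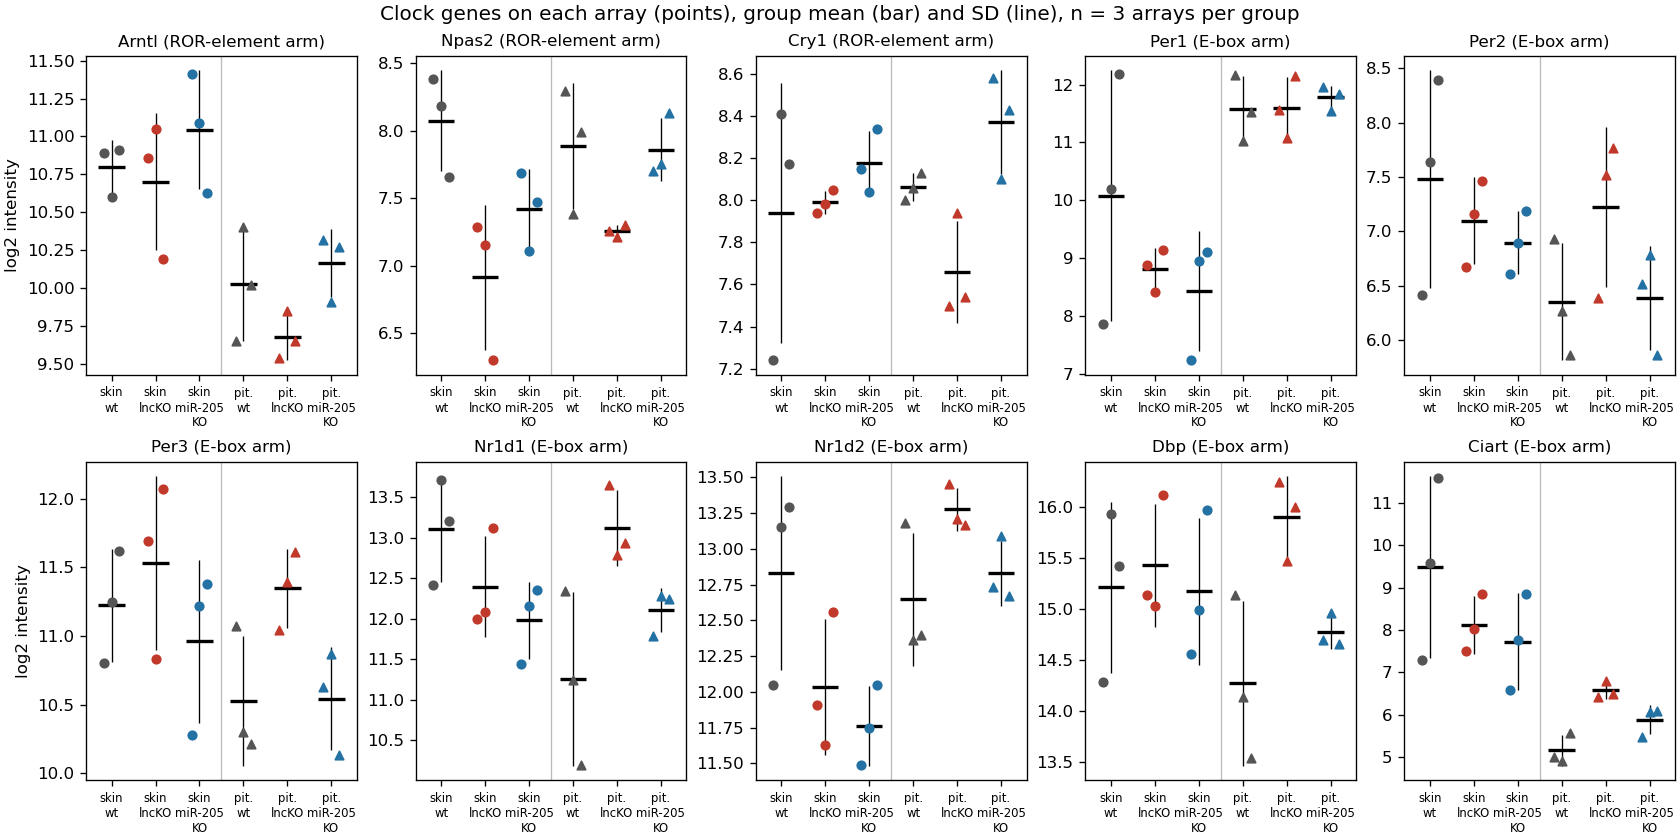
Log2 intensity of each clock gene on each array, with skin as circles and pituitary as triangles, wild type in grey, lncKO in red and miR-205 KO in blue, and the group mean (bar) and SD (line). The axes differ between genes and do not start at 0. In pituitary, the lncKO arrays of Ciart, Dbp and Nr1d1 lie above wild type, and wild-type skin spreads widely for Per1 and Ciart.

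Pituitary lacking miR-205 did not show a called difference from wild type in any of the 10 genes, beside 0.107% of all probe sets (limma). Before adjustment, Ciart alone of the 10 had a p under 0.05 in that fit, beside 1462 of all 19572 probe sets. In 0 of 10 genes were the arrays of the groups apart, beside 10.5% of all probe sets. The median difference was 0.21 in the E-box arm and 0.14 in the ROR-element arm. The former was 0.50 without wild type 10 and 0.04, with 4 of 7 genes above 0, without wild type 11. The largest were Nr1d1, which read 11.79, 12.28 and 12.24 (0.84 ± 0.43, adjusted p = 0.707), and Ciart, which read 5.49, 6.07 and 6.09 (0.72 ± 0.23, adjusted p = 0.506). The 3 wild-type arrays serve both knockouts, so their differences are not independent of each other.

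The knockouts of the pituitary were also set against each other, which leaves the wild-type arrays out of the difference. No clock gene passed, beside 0.291% of all probe sets (limma). Before adjustment, 8 of 10 had a p under 0.05 in that fit, beside 2182 of all 19572 probe sets. The arrays were nevertheless apart in 8 of the 10 genes, beside 15.9% of all probe sets. All 3 genes of the ROR-element arm were lower on every lncKO array than on every miR-205 KO array. Cry1 read 8.58, 8.10 and 8.43 in miR-205 KO (lncKO minus miR-205 KO -0.71 ± 0.19, adjusted p = 0.16), Npas2 read 7.70, 7.75 and 8.13 (-0.60 ± 0.23, adjusted p = 0.347), and Arntl read 10.32, 9.91 and 10.27 (-0.49 ± 0.21, adjusted p = 0.422). In the E-box arm, Ciart, Dbp, Nr1d1, Nr1d2 and Per3 were higher on every lncKO array. Dbp read 14.70, 14.96 and 14.66 in miR-205 KO, a difference of 1.14 ± 0.34 (adjusted p = 0.22). Per1 and Per2 overlapped.

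**Figure D2:**
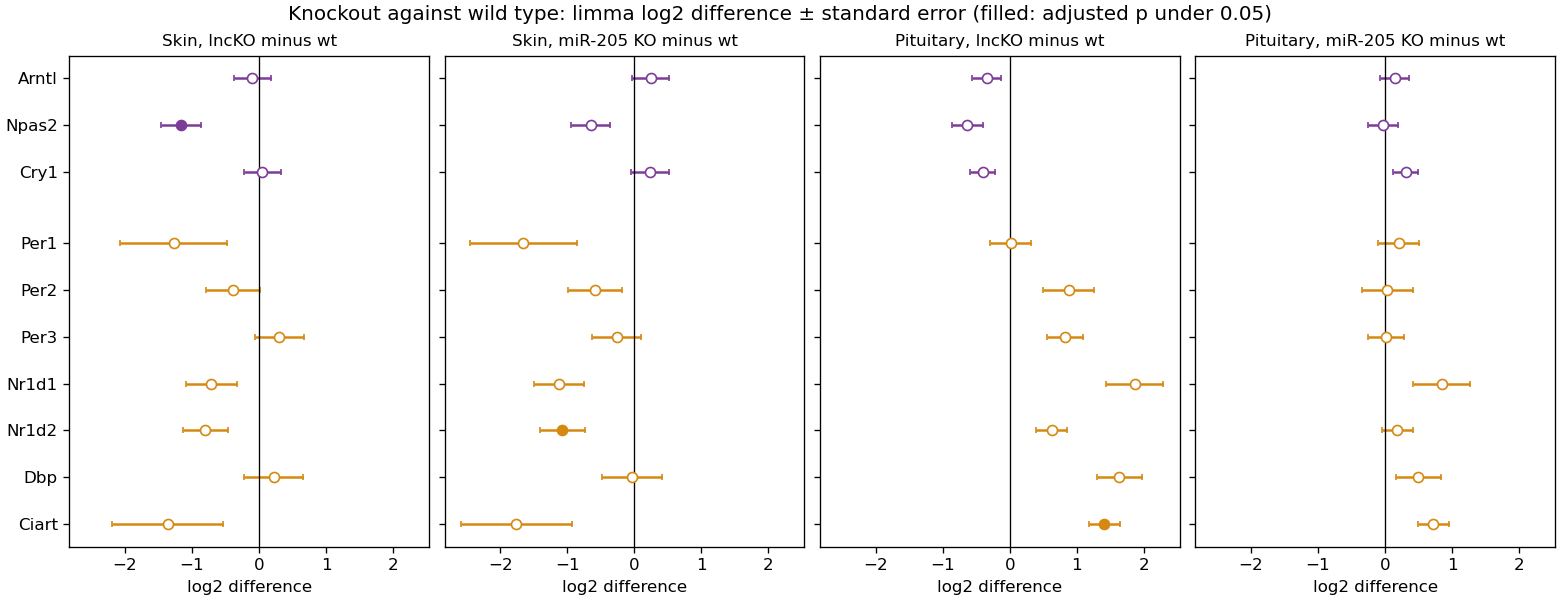
Log2 difference of each clock gene between knockout and wild type in each tissue, with its standard error from limma (n = 3 arrays per group). The ROR-element arm is purple, the E-box arm orange, and filled points have an adjusted p under 0.05. Filled points are Npas2 in lncKO skin, Nr1d2 in miR-205 KO skin and Ciart in lncKO pituitary.

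Genes that respond to glucocorticoids, the adrenal hormones whose own daily rhythm acts on peripheral clocks, were counted beside the clock genes. Of 11 listed, 5 rose in lncKO pituitary, where 0.7% of all probe sets were called: Fkbp5, a co-chaperone of the glucocorticoid receptor (1.60 ± 0.21, adjusted p = 0.0084), Tsc22d3 (1.57), the kinase gene Sgk1 (1.82), Zbtb16 (1.88) and Pdk4, a brake on glucose oxidation (3.06). The median of the list was 1.20, with 10 genes above 0 and 1 below (-0.89). The list was chosen with earlier results of these data known, so its count is not independent of them. Relative to the wild-type mean, the list lay at 1.07, 0.94 and 1.26 on the lncKO arrays and at 0.60, 0.54 and 0.62 on the miR-205 KO arrays. Of 12 immediate early genes, which answer within minutes to stimulation, 1 fell in lncKO pituitary, and the median was -0.78. The mean of 3 genes of posterior pituitary and hypothalamus was 6.62 to 7.08 on wild-type, 7.24 to 7.86 on lncKO and 6.88 to 7.22 on miR-205 KO arrays. Its wild-type and lncKO arrays did not overlap, and none of the 3 genes passed (median difference 0.68). The part of any of these lists in the clock differences was not tested.

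In wild-type skin, several E-box genes varied more between the 3 arrays than nearly any other gene. Per1 read 7.86, 10.20 and 12.18 on wild-type arrays 1 to 3, and Ciart 7.30, 9.59 and 11.58. The order was the same in Per2, at 6.41, 7.64 and 8.39, so that array 1 was low and array 3 high in all 3 genes. The SD was 2.16 in Per1 and 2.14 in Ciart, each above that of 99.9% of 11224 genes with a mean log2 intensity of at least 6, and 1.00 in Per2, above 98.4%. The median SD was 0.30. Nr1d2 (12.05, 13.15 and 13.29) and Per3 (10.80, 11.25 and 11.62) followed that order within a narrower range. In Dbp (14.29, 15.93 and 15.42) and Nr1d1 (12.41, 13.71 and 13.20), array 1 was again the lowest but array 2 the highest. In the ROR-element arm, Cry1 read 7.24, 8.41 and 8.17, again lowest on array 1, with an SD of 0.62 that is above that of 90.1% of genes. Npas2, at 8.38, 8.18 and 7.66, had its lowest value on array 3 and an SD of 0.37, and Arntl, at 10.89, 10.60 and 10.91, an SD of 0.17. Wide spread was not confined to wild-type skin. In wild-type pituitary the SD was 1.07 in Nr1d1 and 0.81 in Dbp, above that of 99.9% and 99.3% of genes. The other E-box genes there ranked from 83% (Ciart) to 96.4% (Per1). In miR-205 KO skin, Ciart and Per1 were above 99.8% and 99.7%, and Nr1d2, the lowest of the arm, above 60.6%.

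Other lists also separated these 3 wild-type skin arrays. Relative to their common mean, the glucocorticoid-responsive list lay at -0.99, -0.48 and 1.47 on arrays 1 to 3, the immediate early list at 0.68, -0.28 and -0.40 and the hair shaft list at 0.85, 1.68 and -2.53. The E-box arm lay at -1.19, 0.29 and 0.89. The part of these lists in the spread of the clock genes was not tested. Every comparison with wild-type skin below rests on these arrays.

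**Figure D3:**
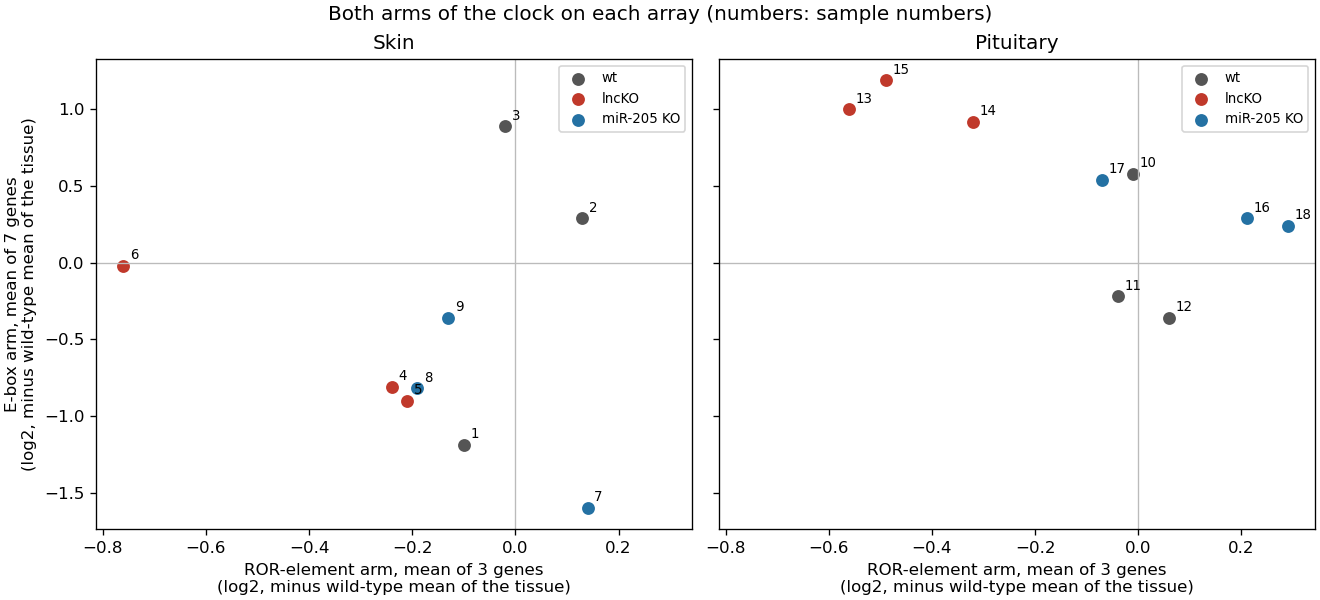
Mean of the 7 E-box genes against the mean of the 3 ROR-element genes on each array, both as log2 difference from the wild-type mean of the tissue, with sample numbers. The 3 lncKO pituitary arrays lie between 0.92 and 1.19 for the E-box arm and between -0.56 and -0.32 for the ROR-element arm, apart from the other pituitary arrays, while wild-type skin runs from -1.19 to 0.89.

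In lncKO skin, Npas2 alone of the 10 genes passed, beside 15.4% of all probe sets. Its wild-type arrays read 8.38, 8.18 and 7.66 and its lncKO arrays 7.29, 7.15 and 6.30, all of the latter lower. Npas2 fell by 1.16 ± 0.30 (adjusted p = 0.0195), with wild type 2.24 times as bright. It no longer passed when wild type 1 (0.0609), wild type 2 (0.0575) or lncKO 6 (0.0768) was left out, or with a floor at 16 (0.0725). Npas2 was also the one clock gene whose arrays were apart, beside 31.5% of all probe sets, so neither count of clock genes exceeds its background. The E-box arm had a median difference of -0.71, beside -0.07 over all probe sets, with 5 genes below 0 and 2 above. That median was -1.06 without wild type 1 or lncKO 6, -0.41 without wild type 2 and -0.23, with 4 genes below 0 and 3 above, without wild type 3.

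No E-box gene passed in lncKO skin while wild type 1 was in the fit. Per1 read 8.88, 8.41 and 9.13 in lncKO, inside the wild-type range (-1.28 ± 0.80, adjusted p = 0.299), and Ciart read 7.50, 8.02 and 8.86, also inside it (-1.36 ± 0.83, adjusted p = 0.283). Both values rest on single wild-type arrays. Without wild type 3 they were -0.23 (adjusted p = 0.85) for Per1 and -0.32 (0.797) for Ciart. Without wild type 1, Per1 (-2.38, adjusted p = 0.0221), Ciart (-2.45, 0.0294) and Nr1d2 (-1.19, 0.0228) passed, in a fit that called 12.8% of all probe sets. Dbp read 15.14, 15.03 and 16.12, a difference of 0.22 ± 0.45 (adjusted p = 0.781), and Per3 11.69, 10.83 and 12.07, a difference of 0.30 ± 0.36 (adjusted p = 0.605). Nr1d1 read 11.99, 12.08 and 13.12 (-0.71 ± 0.38, adjusted p = 0.221), Nr1d2 11.91, 11.63 and 12.56, and Per2 6.67, 7.16 and 7.46, all overlapping wild type. Arntl read 10.86, 11.05 and 10.19 and Cry1 7.94, 7.98 and 8.05, with differences of -0.10 ± 0.27 and 0.05 ± 0.28. Without wild type 1, Dbp was at -0.24 and Cry1 at -0.30, so neither has a settled sign. Beside 15.4% of all probe sets called in this comparison, 3 of 5 cartilage genes and 2 of 4 fat cell genes rose and 4 of 6 hair shaft genes fell. Their part in the clock differences was not tested.

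In skin lacking miR-205, Nr1d2 passed, 1 of 10 beside 16.8% of all probe sets. Nr1d2 read 11.49, 11.75 and 12.05, none above the lowest wild-type array, and fell by 1.07 ± 0.34 (adjusted p = 0.0456). The call was lost in 8 of 13 alternatives, among them median centring (0.0543), a floor at 16 (0.144), a fit of these 2 groups alone (0.0588) and the loss of any array but wild type 1: wild type 2 (0.136) or 3 (0.143), or miR-205 KO 7 (0.155), 8 (0.105) or 9 (0.0637). Nr1d1 read 11.44, 12.15 and 12.35, also below every wild-type array (-1.12 ± 0.38, adjusted p = 0.0587). These were the 2 genes of 10 whose arrays were apart, beside 34.9% of all probe sets.

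All 7 genes of the E-box arm had a fitted difference below 0 in miR-205 KO skin, with a median of -1.07 beside -0.07 over all probe sets. Dbp, at -0.04 as fitted, lay above 0 in 5 of 13 alternatives, median centring among them, and Per3 in 1. Without miR-205 KO 7, 2 of 7 genes were above 0. The other genes of the arm stayed below 0 in every alternative. Per1 read 7.23, 8.95 and 9.10 (-1.66 ± 0.80, adjusted p = 0.173) and Ciart 6.58, 7.76 and 8.85 (-1.76 ± 0.83, adjusted p = 0.162). Per2 read 6.61, 6.89 and 7.19, Per3 10.28, 11.22 and 11.38, and Dbp 14.56, 14.99 and 15.97, all overlapping wild type. Without wild type 1, 5 genes of the arm passed: Per1 (-2.77, adjusted p = 0.0113), Ciart (-2.85, 0.015), Per2 (-1.12, 0.0341), Nr1d1 (-1.47, 0.0229) and Nr1d2 (-1.46, 0.00902), in a fit that called 14.2% of all probe sets. Without wild type 3, none passed, and Per1 was at -0.61 (0.558), Ciart at -0.71 (0.518) and Per2 at -0.13 (0.856). The median of the arm was -1.46 without wild type 1 and -0.61, with 1 gene above 0, without wild type 3. In the ROR-element arm, Arntl read 11.41, 11.09 and 10.63, Npas2 7.69, 7.11 and 7.47, and Cry1 8.15, 8.04 and 8.34, and none passed. Beside 16.8% of all probe sets called, 3 of 5 cartilage genes and 2 of 4 fat cell genes rose and 3 of 6 hair shaft genes fell here.

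Between the knockouts of the skin no clock gene passed, as no probe set at all did (0% called in limma). None of the 10 clock genes had an unadjusted p under 0.05 in that fit, beside 637 of all 19572 probe sets. The fitted differences had opposite signs in the arms, with values of lncKO minus miR-205 KO between 0.20 and 0.57 for the 7 E-box genes and between -0.51 and -0.19 for the 3 others. For the E-box arm this rested on single arrays: without miR-205 KO 7, 4 of 7 genes were above 0 (median 0.05), and without lncKO 6, 6 of 7 (median 0.03). The arrays overlapped in all 10 genes.

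The knockout effects were then compared between tissues, as the interaction term of a model over the 18 arrays. Going by the Y-linked genes, sex and tissue cannot be told apart in this term either, for any gene or knockout. The effect of lncKO on Nr1d1 was a difference of 1.87 in pituitary and -0.71 in skin, and pituitary minus skin was 2.58 ± 0.62 (adjusted p = 0.0133). That call held in all 18 alternatives (adjusted p from 0.00265 to 0.0455), including each that left out an array. Nr1d2 passed too (1.43 ± 0.43, adjusted p = 0.0443), but held in 6 of 18. These were 2 of the 10 genes, beside 9.25% of all probe sets. All 7 E-box genes had an interaction above 0, in the fit and in each of the 18 alternatives, with a median of 1.42 beside 0.08 over all probe sets. The largest was that of Ciart, at 2.77 ± 0.97 (adjusted p = 0.0793). Without wild-type skin 1, 6 genes passed: Nr1d1, Nr1d2, Ciart (3.87, adjusted p = 0.00314), Per1 (2.40, 0.0395), Per2 (1.80, 0.0384) and Dbp (1.88, 0.0469), in a fit that called 9.44% of all probe sets. Without wild-type skin 2 or 3, Nr1d1 alone passed.

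The effect of miR-205 loss differed between tissues for Nr1d1, 1 of 10 beside 9.95% of all probe sets. Its interaction was 1.97 ± 0.62 (adjusted p = 0.0494), from 0.84 in pituitary and -1.12 in skin, and the call held in 3 of 18 alternatives: without wild-type skin 1, without wild-type pituitary 10 (2.51, adjusted p = 0.0105) and with dim probe sets left out. It was lost when any other single array was left out, with the lowest value without wild-type pituitary 12 (1.43, 0.129). Nr1d2 (1.26 ± 0.43, adjusted p = 0.0711) and Ciart (2.48 ± 0.97, adjusted p = 0.111) missed the threshold, and passed without wild-type skin 1 (1.65 with 0.011, and 3.57 with 0.00522), as did Per1 (2.97, 0.0134). The interactions of Arntl, Npas2 and Cry1 did not pass for either knockout, in the fit or in any alternative. Both interactions use the same wild-type arrays of each tissue.

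In wild-type mice, 4 clock genes were lower in pituitary than in skin and none passed as higher, beside 52.1% of all probe sets called in either direction. Ciart, at 4.91 to 5.58 in pituitary and 7.30 to 11.58 in skin, fell furthest (-4.33 ± 0.69, adjusted p = 1.71e-05). Nr1d1, at 10.19 to 12.34 against 12.41 to 13.71, was lower by a ratio of 3.6 (-1.85 ± 0.44, adjusted p = 0.0012). Both calls held in all 12 alternatives. Arntl, at 9.65 to 10.40 against 10.60 to 10.91, was lower by a smaller step (-0.78 ± 0.25, adjusted p = 0.013), and its call was lost without wild-type pituitary 10 (-0.59, 0.0834). These 3 genes were those with arrays apart, beside 55.6% of all probe sets.

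Per2 overlapped between tissues but passed (-1.13 ± 0.42, adjusted p = 0.0303). Its call held in 6 of 12 alternatives, and was lost without skin 2 (0.0791), skin 3 (-0.67, 0.204), pituitary 11 (0.0722) or pituitary 12 (0.134). Per1 went the other way, with 11.03 to 12.17 in pituitary against 7.86 to 12.18 in skin (1.49 ± 0.68, adjusted p = 0.0758), and passed without skin 3 (2.54, 0.000718). Npas2, Cry1 and Nr1d2 overlapped between tissues, with the largest of their differences at -0.18 (Npas2 and Nr1d2). Dbp (-0.94 ± 0.43, adjusted p = 0.0772) passed without skin 1 (0.0102) or pituitary 10 (0.0145), and Per3 (-0.70 ± 0.34, adjusted p = 0.0948) without the same arrays (0.049 and 0.0334).

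The order of the 6 groups differed from gene to gene. By group mean (± SD), Ciart ran from wild-type skin (9.49 ± 2.14) through lncKO skin (8.13 ± 0.69), miR-205 KO skin (7.73 ± 1.13), lncKO pituitary (6.58 ± 0.20) and miR-205 KO pituitary (5.88 ± 0.34) to wild-type pituitary (5.16 ± 0.37). Neighbours overlapped within skin and between the last pair, while lncKO pituitary was apart from miR-205 KO pituitary. Dbp was highest in lncKO pituitary (15.91 ± 0.40) and lowest in wild-type pituitary (14.27 ± 0.81), with the skin groups in between at 15.17 to 15.43 and overlapping each other. Nr1d1 had similar means in lncKO pituitary (13.12 ± 0.46) and wild-type skin (13.10 ± 0.66), and its lowest in wild-type pituitary (11.26 ± 1.07). Npas2 was highest in wild-type skin (8.07 ± 0.37), with wild-type pituitary (7.89 ± 0.46) and miR-205 KO pituitary (7.86 ± 0.24) inside its range. It was lowest in lncKO skin (6.91 ± 0.53), where 2 arrays came close to lncKO pituitary (7.26 ± 0.05). Per1 was at a similar level in the 3 pituitary groups (11.57, 11.59 and 11.78).

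Beyond genotype and tissue, the E-box genes varied together among arrays of the same group. This was measured as the Pearson correlation, over the 18 arrays, of each gene's deviations from its group mean, which share arrays and are given without a test. The deviations were not scaled, so groups with a wide spread, such as wild-type skin, weigh most. All 21 pairs of E-box genes were positive, from 0.38 to 0.92, with a median of 0.67. The closest was Nr1d1 with Dbp, at 0.92 over all arrays, 0.94 in skin and 0.94 in pituitary. Dbp with Nr1d2 followed at 0.89. Per1 with Ciart was at 0.86 (0.95 in skin but -0.27 in pituitary, and 0.48 by Spearman rank over all arrays). The median was 0.76 in skin and 0.37 in pituitary, where all 6 pairs with Ciart were negative.

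Between the arms the sign depended on the gene. Arntl was negative with all 7 E-box genes (-0.77 to -0.30), in skin and in pituitary alike. Npas2 was negative with all 7 over the 18 arrays (-0.51 to -0.22) and in skin, but positive with all 7 in pituitary. Cry1 was positive with all 7 over the 18 arrays (0.21 to 0.63) and in skin, but with only 1 of 7 in pituitary. By Spearman rank over the 18 arrays, Cry1 was weaker, from 0.03 (with Nr1d1) to 0.52 (with Ciart). The SD of Cry1 was 0.62 in wild-type skin and 0.06 in lncKO skin. Within the ROR-element arm the 3 pairs ran from -0.23 to 0.12.

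**Figure D4:**
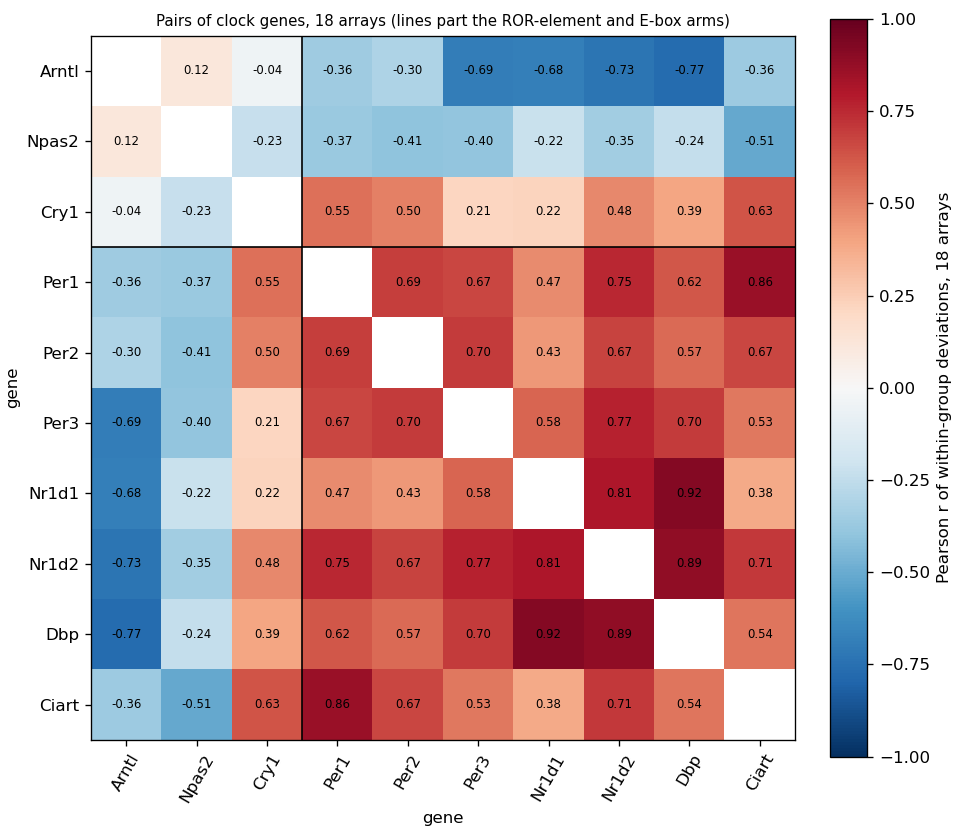
Pearson r between clock genes of their deviations from the group mean over 18 arrays (red above 0, blue below), with lines parting the arms. All 21 pairs inside the E-box arm are above 0, Arntl and Npas2 are negative with every E-box gene, and Cry1 is positive with each. By Spearman rank, the values of Cry1 with the E-box genes are 0.03 to 0.52.

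Among 11214 other genes, the 5 whose deviations were most like the mean of the E-box arm over the 18 arrays were Cxcl13, a B cell chemokine (0.93), Med13l (0.92), Hlf (0.91), Anapc1, a subunit of a ubiquitin ligase of the cell cycle (0.91), and Irs2, an adaptor of the insulin receptor (0.90). Hlf encodes a D-box factor related to DBP. In pituitary alone these values were between 0.52 (Anapc1) and 0.91 (Med13l). Those most like the mean of the ROR-element arm were Rps19bp1 (0.89), Ccz1 (0.81), Cidea, a lipid droplet protein (0.81), Phrf1 (0.81) and Eif3e, a translation initiation factor (0.80). In pituitary alone these 5 were between 0.37 (Ccz1) and 0.85 (Phrf1). A ranking of so many genes over 18 arrays will always have a top, and these values describe it.

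Of 21 further genes of the clock and its output, 19 were measured. In lncKO skin, 6 of the 19 passed, beside 15.4% of all probe sets. Of these, 3 rose: Rora, an activator at ROR elements (0.92 ± 0.25, adjusted p = 0.0286), Bhlhe41, a repressor at E-boxes (1.05 ± 0.33, 0.0472), and Fbxl21, which acts on cryptochrome stability (1.04 ± 0.27, 0.0198). In the same comparison, 2 fell: Noct, which encodes nocturnin (-1.61 ± 0.32, 0.006), and Usp2, a deubiquitinase gene of clock output (-1.19 ± 0.32, 0.0237). The lncKO arrays of Noct, at intensities of 15, 19 and 28, lay near background, so its size is uncertain. The sixth was Rorb, which passed as lower, but its skin arrays lay at intensities of 6 to 23, near background in every genotype, so no change is read from it. In miR-205 KO skin, 2 of 19 passed, beside 16.8%: Usp2, which fell by 1.24 ± 0.32 (adjusted p = 0.0186), and Rorb, again near background. In pituitary none of the 19 passed in lncKO, in miR-205 KO or between the knockouts (limma), and their median in lncKO was 0.20, with 14 of 19 above 0.

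The effect on Usp2 differed between tissues for both knockouts, with an interaction of 1.91 ± 0.40 for lncKO (adjusted p = 0.00527) and of 1.65 ± 0.40 for miR-205 KO (0.0132). Rorb passed in both interactions as well, with the same limit of its skin values. Between wild-type tissues, 12 of the 19 passed, beside 52.1% of all probe sets. Those higher in pituitary included Noct (2.88), Btrc, which targets PER proteins for degradation (2.47), Usp2 (2.38) and Rorb, with a mean of 12.39 in pituitary and near background in skin. Those lower included Rora (-4.78), Wee1, a mitotic kinase gene (-2.16), Csnk1e, a kinase gene acting on PER proteins (-2.10), and Arntl2, the paralog of Arntl, with a mean of 6.36 in skin and near background in pituitary. Rora and Rorb, activators at the same element, were thus on opposite sides, Rora with means of 14.41 in skin and 9.63 in pituitary. Clock, the partner of Arntl, did not pass in any comparison between groups, with differences between -0.18 and 0.06.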

How the data were processed

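The table that the authors deposited holds a linear intensity for each of 22206 probe sets on 18 arrays. How these were background corrected, summarised and normalized is not given in the sources used here. Of these probe sets, 19572 carried 1 gene symbol and 2634 none. The intensities were log2 transformed, with no pseudocount and no further normalization. Each comparison was fitted with limma 3.58.1 in R 4.3.3 (lmFit and eBayes), two-sided. The fit took the 9 arrays of a tissue, or all 18 for comparisons across tissues. p-values were adjusted over the 19572 probe sets (Benjamini-Hochberg), with a threshold of 0.05. Since separate mice are not stated, they measure spread among these samples alone, and that may be technical.

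All 10 clock genes are named in every comparison, further clock genes where they passed (at most 8 by smallest p), and the 5 genes most like each arm with a mean log2 intensity of at least 6. Lists with several probe sets for a gene used the brightest. Clock was named in addition, after its values were seen. The genes and lists were chosen with earlier results of these data known, and the Y-linked list was added after the data were seen. The scripts were tested on simulated data. Alternatives were quantile normalization, median centring, a floor at an intensity of 16, leaving out probe sets with a mean log2 intensity below 5, a variance trend with robust estimation, other sets of arrays in the fit, and leaving out each array. No sample number recurs, so none were paired. Precision is limited by the number of arrays. Over all probe sets the standard error had a median of 0.26 in skin, 0.21 in pituitary and 0.34 for interactions.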

Additional observations from a re-analysis of the deposited data

Results flagged for a closer look

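In 3 cases the effect of a knockout on a clock gene differed between the tissues by the test of that difference. The same test called 9.25% of all probe sets for lncKO and 9.95% for miR-205 KO. Going by the Y-linked genes, sex cannot be told apart from tissue in that test. Nr1d1 in lncKO had a pituitary effect above its skin effect by 2.58 on the log2 scale (limma interaction, adjusted p = 0.0133). Every lncKO pituitary array lay above every wild-type pituitary array, beside 16.8% of all probe sets apart, while in skin the groups overlapped. Within neither tissue did this lncKO difference pass (limma, adjusted p = 0.0788 in pituitary and 0.221 in skin). By the same limma test, Nr1d2 in lncKO differed by 1.43 (adjusted p = 0.0443), and Nr1d1 in miR-205 KO by 1.97 (adjusted p = 0.0494). For the latter, every knockout skin array lay below wild type, beside 34.9% of all probe sets apart, and the pituitary groups overlapped. The last 2 held in 6 and 3 of their 18 alternatives.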

How the results depend on the processing

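No call changed sign under any alternative. The number of clock genes called did move. In lncKO skin it was 1, and 0 with the floor and 0 to 3 with single arrays left out. In miR-205 KO skin it was 1, and 0 with median centring, the floor or only the groups compared, 2 with the variance trend, and 0 to 5 with arrays left out. In lncKO pituitary it was 1, and 2 with quantile normalization, median centring or dim probe sets left out, 0 with the floor or all 18 arrays, and 0 to 2 with arrays left out. The lncKO interaction had 2, and 1 with median centring, the floor or only the groups compared, and 1 to 6 with arrays left out. The miR-205 KO interaction had 1, and 0 with quantile normalization, median centring, the floor or only the groups compared, and 0 to 4 with arrays left out. The share of all probe sets called moved as well. Over the alternatives, that share ran from 9.64% to 22.5% in lncKO skin and from 8.52% to 23.8% in miR-205 KO skin. In lncKO pituitary it ran from 0.0562% to 1.57%. For the interactions it ran from 6% to 9.44% (lncKO) and from 6.75% to 10.2% (miR-205 KO). The highest count of clock genes for both skin comparisons and both interactions came without wild-type skin 1. The cause was not tested. No paired analysis was possible because no sample number recurs. The remaining 4 comparisons kept their counts within 1.5 times. With 3 arrays a group, a difference such as that of Per2 in lncKO pituitary (0.88 ± 0.37) did not pass.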
